A study of Homo sapiens
Mus musculus with 5 samples.

Results

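Genes that break down extracellular nucleotides, or that encode receptors for nucleotides and adenosine, were examined in tumors of a human lung cancer line grown in mouse brain and mouse lung. The 8 genes chosen were the surface enzymes ENTPD1, ENTPD2 and NT5E, the adenosine receptors ADORA1 and ADORA2B, the nucleotide receptors P2RY2 and P2RX4, and the uridine phosphorylase UPP1. They were taken by symbol from the human table, which stands for the cancer cells, and by the same symbol from the mouse table, which stands for the host, with mouse P2ry12 added for contrast. Of 25524 human genes 7 were members (human ENTPD1 was not analysed here), and of 24628 mouse genes 9 were.

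The cells were H2030-BrM3, a derivative of the human lung adenocarcinoma line H2030 selected for growth in the brain, and every host was of the athymic nu/nu strain, whose missing thymus leaves it short of T cells. There were 3 brain tumors and 2 orthotopic lung tumors, and the lung tumors were seeded through the trachea. One line was used, and the labels do not say how the brain tumors were seeded, how old the mice were, or that each tumor came from its own animal. P-values therefore measure only the spread between these samples, which may be technical.

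ATP leaks or is released from stressed and dying cells and acts on P2X channels and on P2Y receptors, which couple to G proteins. Ectonucleotidases at the cell surface remove its phosphates in steps: ENTPD1 (CD39) takes ATP to AMP, ENTPD2 acts mainly on ATP and leaves ADP, and NT5E (CD73) turns AMP into adenosine. Adenosine then acts on its own receptors, of which ADORA1 lowers and ADORA2B raises cyclic AMP, and microglia, the resident macrophages of the brain, follow ATP and ADP through P2RY12. UPP1 splits uridine into uracil and a ribose phosphate.

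Levels are in RPKM, which divides reads by gene length and library size, and whole reads were recovered from them. Human reads numbered 2445904 to 8419288 per library. Mouse reads numbered 2710983 to 8636094 in the brain tumors, 5295159 in lung tumor 2 and only 231156 in lung tumor 1, so that host values of lung tumor 1 rest on few reads. Human reads made up 75.6%, 56.5% and 22.1% of brain tumors 1, 2 and 3, and 96.6% and 41.4% of lung tumors 1 and 2 (95% Wilson intervals within 0.0321 points, counting error only). Host markers fitted the labelled organs: summed astrocyte markers were at 13277 to 14992 RPKM in the brain and at 164 to 249 in the lung tumors. Lung epithelial markers were at 50.5 to 92.3 RPKM in the brain tumors, 976 in lung tumor 1 and 64702 in lung tumor 2. The lung tumors thus differed from each other as host tissue, and summed endothelial markers were at 221 in lung tumor 1 and 1599 RPKM in lung tumor 2. In the human table KRT8 and KRT18 marked the cells as epithelial (210.5 to 1343 RPKM), while KRT19 was at or under 0.458 RPKM in every library. The longest 20% of genes lay below their gene means in lung tumor 1 (by a median log2 deviation of -0.53 for human and -0.82 for mouse) and above them in the other 4 libraries.

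In the cancer cells, the members were chosen with the brain to lung difference of the human table already known, so their values are given as a description, with no test. ENTPD2, the enzyme that leaves ADP, stood at 20.2, 22.2 and 29.8 RPKM in brain tumors 1, 2 and 3, against 3.27 and 1.60 RPKM in lung tumors 1 and 2. All 3 brain tumors lay above both lung tumors, and the lowest brain tumor was 6.17 times the highest lung tumor. The means were 24.0 ± 5.08 (SD, n = 3) and 2.44 ± 1.18 RPKM (n = 2), a difference of 2.89 in mean log2(RPKM + 1). These values rest on 255, 213 and 109 reads from the brain tumors but only 32 and 9 from the lung tumors. ENTPD2 (ENSG00000054179.11) lies on chromosome 9 from 137048107 to 137054061 in GRCh38, where a long noncoding RNA gene overlaps it. Whether the counting used strand is not given in the sources used here.

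UPP1, the uridine phosphorylase, had the opposite order. Its level was 64.2, 36.9 and 42.7 RPKM across the brain tumors, against 251 and 156 RPKM in lung, on 100 to 1573 reads per library. Both lung tumors lay above all 3 brain tumors, the lower of them by 2.43 times the highest brain tumor. The means were 47.9 ± 14.4 (n = 3) and 204 ± 67.6 RPKM (n = 2), a log2 difference of -2.06. UPP1 (ENSG00000183696.13) is on chromosome 7 from 48088704 to 48108736.

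NT5E, which makes adenosine, was abundant in every tumor and did not separate the organs. It was at 187, 138 and 127 RPKM across the brain tumors, against 95.1 and 437 RPKM in lung. The lung tumors thus held both the lowest and the highest value, 4.59 times apart, on 619 and 1633 reads. The log2 difference between the organs was -0.46 in all 5 libraries, 0.64 without lung tumor 2 and -1.55 without lung tumor 1. NT5E (ENSG00000135318.11) is on chromosome 6 from 85450083 to 85495784.

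Of the 2 adenosine receptors chosen, ADORA2B, which raises cyclic AMP and answers to high adenosine, was the one with more than a trace of signal in the cancer cells. Its values were 11.3, 8.69 and 4.87 RPKM across the brain tumors, against 14.8 and 15.6 RPKM in lung. The lung tumors lay close together and above every brain tumor, with a log2 difference of -0.87. ADORA1 was at 1.26, 2.13 and 1.66 RPKM across the brain tumors, against 1.71 and 0.270 RPKM in lung, on 2 to 27 reads. Its groups overlapped, and its log2 difference of 0.52 was -0.03 without lung tumor 2. ADORA2B (ENSG00000170425.3) lies on chromosome 17 from 15850362 to 15975746 and ADORA1 (ENSG00000163485.15) on chromosome 1 from 203127726 to 203167405.

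Of the nucleotide receptors, P2RX4, an ATP-gated channel, stood at 16.2, 19.3 and 13.1 RPKM across the brain tumors, against 21.3 and 14.4 RPKM in lung. The ranges overlapped and the log2 difference was -0.12. P2RY2, a receptor for ATP and UTP, was near 0: it had 2 reads in brain tumor 1, 1 read each in brain tumor 2 and lung tumor 2, and 0 in brain tumor 3 and lung tumor 1. A count of 0 allows up to 0.550 RPKM in brain tumor 3 and 0.206 RPKM in lung tumor 1 (3 reads, counting error only), so P2RY2 was under the filter of 1 RPKM in at least 2 libraries, which the other 6 human members passed. P2RX4 (ENSG00000135124.14) is on chromosome 12 from 121210129 to 121234106 and P2RY2 (ENSG00000175591.11) on chromosome 11 from 73218281 to 73242427.

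**Figure D1:**
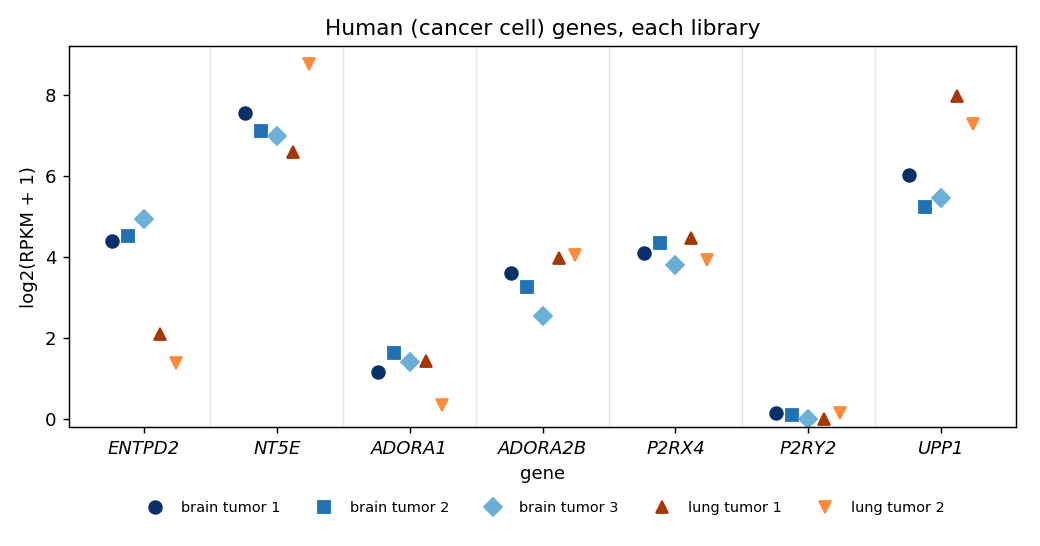
Level of each human member in each library, as log2(RPKM + 1), with blue symbols for the 3 brain tumors and orange symbols for the 2 lung tumors. ENTPD2 is high in all brain tumors, UPP1 is high in both lung tumors, NT5E spans its whole range within the lung tumors, and P2RY2 lies at the bottom in all 5.

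Per length, mean levels in the brain tumors ran from NT5E (150 RPKM) through UPP1 (47.9), ENTPD2 (24.0), P2RX4 (16.2), ADORA2B (8.28) and ADORA1 (1.68) to P2RY2 (0.0588). Neighbours in this order did not overlap between the 3 brain tumors. In the lung tumors ENTPD2, at 2.44 RPKM, came below P2RX4 (17.8) and ADORA2B (15.2), whose levels overlapped there. NT5E and UPP1 changed places between the lung tumors. Comparisons between genes are rough, because the lengths behind the RPKM are defined in a way that the sources used here do not give. Groups that did not overlap were seen for 3 of the 6 members past the filter, 1 higher and 2 lower in the brain tumors, beside 29.7% of all 14423 tested human genes (17.4% higher and 12.3% lower). Nothing is read from that count, since the members were chosen on this contrast.

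The human genes with the profile most like ENTPD2 over the 5 libraries were ABCA1, SNED1 and HMGA2. Likeness was the Euclidean distance between log2(RPKM + 1) values after each gene's mean was removed, over 10402 genes with a mean of at least 5 RPKM, and these distances were 0.56, 0.73 and 0.77 against a median of 3.27. For UPP1 the nearest genes were HES6 (0.34), EFHD2 (0.38) and EEF1A2 (0.41), against a median of 2.67. For NT5E they were CCDC68 (0.21), ATP10D (0.24) and UBASH3B (0.25), against 1.80. The NT5E neighbours shared its split between the lung tumors: ATP10D was at 27.5 and 144 RPKM in lung tumors 1 and 2. The names describe these 5 libraries only.

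The other human genes of nucleotide and nucleoside handling were taken from a list of 47, of which 33 were matched in the human table and 21 passed the filter. By limma 0 of the 21 were called at an adjusted p under 0.05 in either direction, beside 0.00693% of all 14423 genes, and 6 had an unadjusted p under 0.05, beside 10.5% of all. Voom on the recovered reads also called 0 of them. Without lung tumor 2, where 13.2% of all human genes were called, there were 4 calls, ENTPD4, ENTPD5 and ENTPD7 higher and NT5C lower in the brain tumors, in a fit that has to take the spread of the single remaining lung tumor from the brain tumors. The median log2 difference of the 21 was -0.32, beside 0.09 for all tested human genes. Of the 21, 6 were lower in all 3 brain tumors than in both lung tumors and 3 were higher, beside 12.3% lower and 17.4% higher among all tested human genes. Among the 8 breakdown and salvage genes tested, 4 were lower and 2 higher in this way. For the 6 other ectonucleotidases it was 1 lower and 0 higher, and for the 4 nucleoside transporters 0 and 0. Nothing is read from these counts, since the list was chosen with earlier results of these data known.

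The 4 with the largest differences, among genes with a mean of at least 5 RPKM in the higher group, were P2RY11, TYMP, NT5C2 and NT5C, and none was called. P2RY11, a receptor for ATP, stood at 1.21, 1.59 and 5.45 RPKM across the brain tumors, against 10.4 and 6.68 in lung, but it overlaps PPAN and a readthrough gene, so its reads are uncertain. TYMP, thymidine phosphorylase, had 7.11, 12.003 and 3.72 against 26.7 and 16.8 RPKM; it overlaps SCO2, and its reads are uncertain as well. NT5C2, a nucleotidase of the cytosol, had 174, 194 and 322 RPKM across the brain tumors, against 74.6 and 123 in lung (limma log2 fold change 1.20, SE 0.40, adjusted p = 0.454). NT5C, another nucleotidase inside the cell, was at 40.4 to 47.8 RPKM in 4 libraries and at 179 RPKM in lung tumor 1 alone.

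In the host, Entpd1 and P2ry12 were included for contrast, and the members and tests were chosen with earlier results of these data known. The same symbols as in the cancer cells, and P2ry12, were tested with limma on log2(RPKM + 1) over all 15431 mouse genes past the filter. Of the 9 host members, all of which passed it, 3 were called: Adora1 rose in the brain tumors, and P2ry2 and P2rx4 fell. This is 33.3%, beside 22.4% of all tested mouse genes (14.3% higher and 8.12% lower), where brain tissue is set against lung tissue. Unadjusted p was under 0.05 for 4 of the 9, beside 38.5% of all. The groups did not overlap for 1 member higher and 5 lower in the brain tumors, beside 56.1% of all tested mouse genes (30.0% higher and 26.2% lower). Each of these counts, 3 called and 6 not overlapping, is about 1 gene more than the background share gives for 9 genes, and is near it. In such bulk samples fewer cells of a type and less RNA per cell cannot be told apart.

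Adora1, the adenosine receptor that lowers cyclic AMP and is known from neurons, was at 71.3, 61.0 and 79.9 RPKM across the brain tumors, against 2.05 and 2.93 RPKM in lung. Every brain tumor was at least 20.8 times the higher lung tumor. The log2 fold change was 4.36 (SE 0.33, limma adjusted p = 0.00132). The lung tumor 1 value rests on 2 reads (95% Poisson interval 0.250 to 7.44 RPKM), while lung tumor 2 had 65 reads and the brain tumors 812 to 2892. The call held in each of 13 alternatives (adjusted p 0.000977 to 0.0254), and the fold change was 4.18 to 4.55 when single libraries were left out. Summed neuron markers were at 1556 to 2460 RPKM in the brain and 36.4 to 38.9 in the lung tumors, and their part in the Adora1 difference was not tested.

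P2ry2, the receptor for ATP and UTP that was near 0 in the cancer cells, was at 1.92, 1.24 and 1.86 RPKM across the brain tumors, against 11.2 RPKM in each lung tumor. The groups were far apart, with the lower lung tumor at 5.81 times the highest brain tumor, although lung tumor 1 had 6 reads (95% Poisson interval 4.13 to 24.5 RPKM). The log2 fold change was -2.20 (SE 0.39, limma adjusted p = 0.0135). It was no longer called when brain tumor 1 (adjusted p = 0.0666), 2 (0.0896) or 3 (0.0612) was left out, or with no filter (0.0563), and the adjusted p ran from 0.00504 to 0.112 over 13 alternatives.

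P2rx4, the ATP-gated channel of macrophages and microglia among other cells, was at 41.3, 34.6 and 15.2 RPKM across the brain tumors, against 160 and 108 RPKM in lung. Both lung tumors lay above every brain tumor, and brain tumor 3 was lowest. The log2 fold change was -2.19 (SE 0.50, limma adjusted p = 0.0287). It was no longer called when brain tumor 1 (adjusted p = 0.0619), 2 (0.0924) or 3 (0.0646) or lung tumor 1 (0.0719) was left out, with a range of 0.0188 to 0.0924 over 13 alternatives. Summed macrophage and monocyte markers (all 6 above 0 in each library) ran from 67.4 to 483 RPKM in the brain and from 4397 to 6760 in the lung tumors. Lyz2 made up most of the sum in lung tumor 2 (4216 RPKM), and Marco (3210 RPKM) with Lyz2 (2777) in lung tumor 1. Each of these markers was higher in both lung tumors than in every brain tumor, by little for Cd68 in lung tumor 2. Cd68 was at 523 and 70.6 RPKM in lung tumors 1 and 2, against 69.4, 68.9 and 22.2 in brain tumors 1, 2 and 3. Summed microglia markers overlapped between the organs, at 201 to 686 RPKM in the brain and 308 to 568 in lung, with 8 of 10 above 0 in lung tumor 1. The 10 did not move together: 1 was called higher and 1 lower in the brain tumors. Sall1 was at 2.09 to 11.4 RPKM in the brain, against 0 and 0.281 in lung tumors 1 and 2. Olfml3 was at 2.52 to 15.4 RPKM in the brain, against 85.1 and 77.4. The part of these cells in the P2rx4 difference was not tested.

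The surface enzymes of the host were not called. Entpd1 was the most abundant of them, at 120, 91.7 and 22.0 RPKM across the brain tumors, against 71.3 and 222 RPKM in lung. The groups overlapped (log2 fold change -0.998, SE 0.85, limma adjusted p = 0.427), and the lung tumor 1 value rests on 8 reads. Nt5e was at 9.31, 7.52 and 4.78 against 10.5 and 29.1 RPKM, lowest in the 3 brain tumors but not called (log2 fold change -1.22, SE 0.55, adjusted p = 0.161). Without lung tumor 1, which had 9 reads, the Nt5e log2 fold change was -1.92 (adjusted p = 0.0332). Entpd2, which separated the organs in the cancer cells, was at 6.26, 4.80 and 3.30 RPKM in the host of the brain tumors and at 4.35 in lung tumor 2. In lung tumor 1 it was listed at 0, which allows up to 7.11 RPKM at that depth, so a host difference in Entpd2 was not detectable. Its log2 fold change of 1.29 was 2.50 without lung tumor 2 (adjusted p = 0.00969), where that 0 is the lone lung value.

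Adora2b was at 4.30 to 6.45 RPKM across the brain tumors, against 11.4 and 8.22 in lung (log2 fold change -0.78, SE 0.40, limma adjusted p = 0.208). Both lung tumors lay above every brain tumor, as for the human gene. Upp1 was at 18.6, 10.9 and 3.47 RPKM across the brain tumors, against 27.1 and 37.8 in lung (log2 fold change -1.71, SE 0.67, adjusted p = 0.120), and was not called. Again both lung tumors lay above every brain tumor, as for the human gene. Nothing is read from this likeness, since the human members were chosen on this contrast. Lung tumor 1 had 5 and 4 reads of Adora2b and Upp1. P2ry12, the microglial receptor for ADP, was at 39.4 and 31.3 RPKM in brain tumors 1 and 2, but at 5.36 in brain tumor 3 and at 5.86 and 3.34 in the lung tumors. It was not called (log2 fold change 1.89, SE 0.86, adjusted p = 0.166), and without brain tumor 3 it was called at 2.73 (adjusted p = 0.0451).

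**Figure D2:**
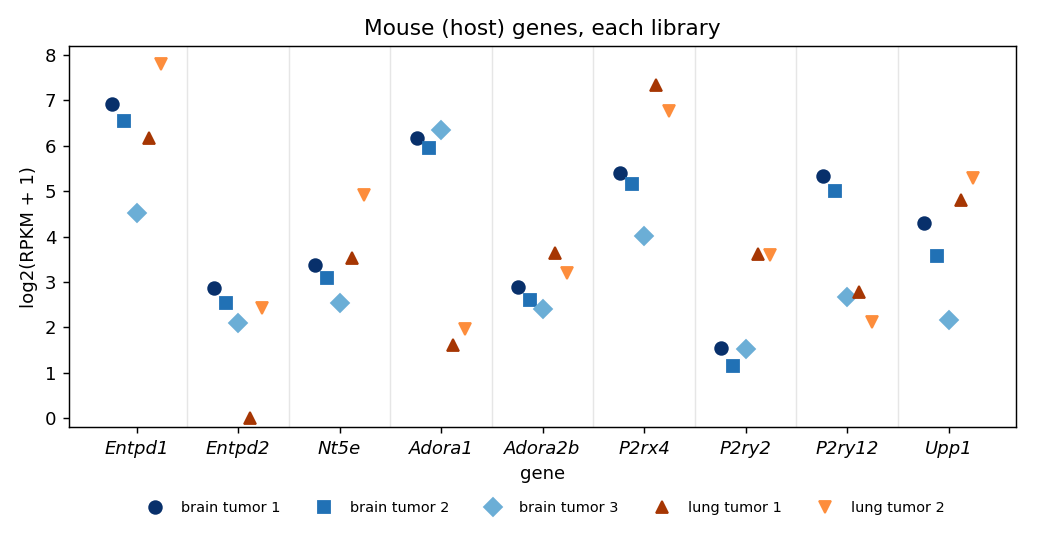
Level of each mouse member in each library, as log2(RPKM + 1), with blue symbols for the 3 brain tumors and orange symbols for the 2 lung tumors. Adora1 is high in all brain tumors, P2rx4 and P2ry2 are high in both lung tumors, and brain tumor 3 (light blue diamonds) is lowest of the brain tumors for every member but Adora1 and P2ry2.

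**Figure D3:**
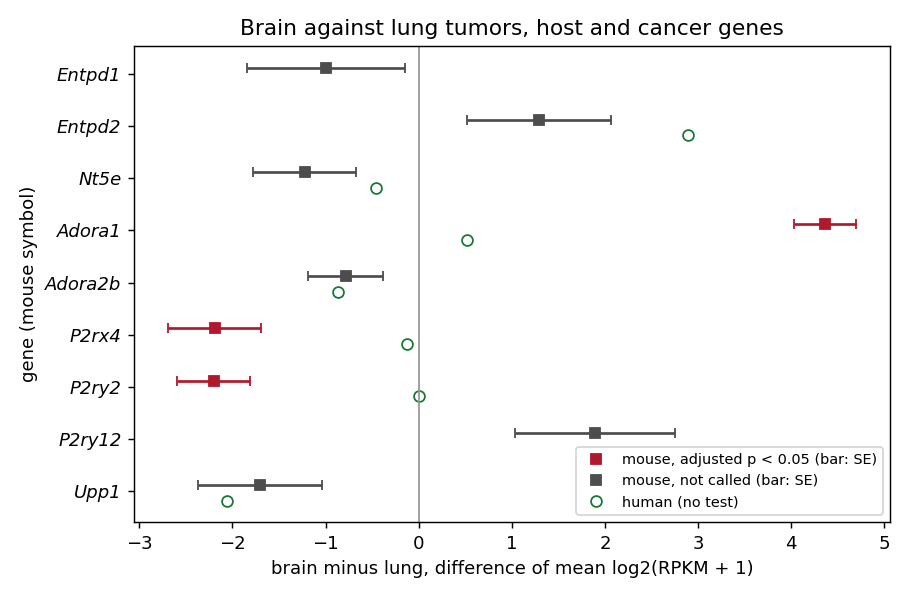
Difference of mean log2(RPKM + 1), brain minus lung tumors, for mouse genes (squares with SE, red where the limma adjusted p is under 0.05) and for the human gene of the same symbol (open circles, no test). The Adora1 square lies at 4.36 and the ADORA1 circle at 0.52. Each of the 6 human members past the filter lies on the same side of 0 as its mouse gene, some of them close to 0. Nothing is read from this, since the human members were chosen on this contrast. The sides of NT5E, ADORA1 and P2RX4 changed when single libraries were left out, and Entpd2 was at 0.08 without lung tumor 1.

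Brain tumor 3, the brain tumor with the largest share of mouse reads, was the lowest of the brain tumors for 7 of the 9 host members, all but Adora1 and P2ry2. The mean of brain tumors 1 and 2 was 6.60 times the brain tumor 3 value for P2ry12, 4.79 times for Entpd1, 4.25 times for Upp1 and 2.50 times for P2rx4. It was 1.76 times for Nt5e, 1.67 for Entpd2 and 1.34 for Adora2b. The same ratio was 15.97 for P2ry13 and 8.11 for P2ry6, which are nucleotide receptors known from microglia and macrophages, and 3.78 for P2rx7, an ATP-gated channel. It was 4.49 for Ada and 4.69 for Pnp, enzymes of adenosine and inosine breakdown. For the adenosine receptor Adora2a it was 5.06, with brain tumor 1 (1.71 RPKM) nearer to brain tumor 3 (1.39) than to brain tumor 2 (12.3). These other purine genes were chosen after their low values in brain tumor 3 were seen. Several genes of the same list were not lower there, with ratios of 0.878 for Panx2, 0.974 for Upp2 and 0.739 for Nt5c2. All 10 microglia markers were lowest in brain tumor 3 among the brain tumors, and their sum was 686, 639 and 201 RPKM in brain tumors 1, 2 and 3, a ratio of 3.30. All 6 macrophage and monocyte markers were lowest there too, with a ratio of 6.17 for their sum. So were all 5 mural markers (1.91) and all 8 endothelial markers (1.72). Adora1 (ratio 0.828) and P2ry2 (0.848) were higher in brain tumor 3 than the mean of the other two, as were the summed neuron markers (0.720), while the ratio was 1.12 for astrocyte and 1.15 for oligodendrocyte markers. The part of these cell types in the members' values was not tested. Relative to the summed microglia markers, P2ry12 made up 5.75%, 4.89% and 2.67% in brain tumors 1, 2 and 3 and Entpd1 17.4%, 14.3% and 10.995%. P2rx4 went the other way, at 6.02%, 5.41% and 7.57%, and Upp1 was at 2.71%, 1.70% and 1.73%. These are values of 1 library against 2, with no test.

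**Figure D4:**
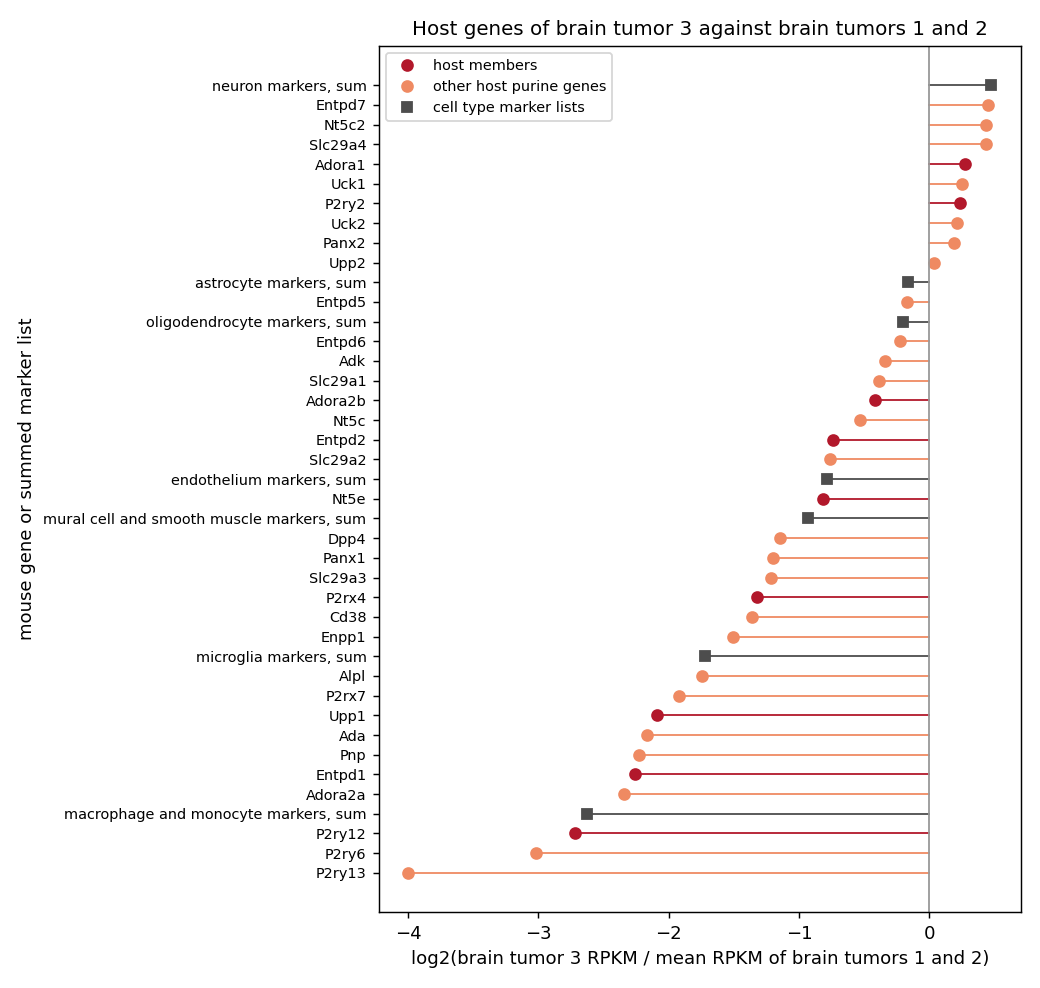
Log2 ratio of RPKM in brain tumor 3 to the mean of brain tumors 1 and 2, for the host members (red), the other host purine genes with a mean of at least 5 RPKM in brain tumors 1 and 2 (orange), and summed cell type marker lists (grey squares). P2ry13, P2ry6 and P2ry12 lie furthest to the left, beyond the macrophage sum, with P2ry12 close to it. Entpd1, Upp1, Ada, Pnp and Adora2a are among the genes between the macrophage and microglia sums. The mural and endothelial sums lie left of 0 as well. Adora1, P2ry2 and the neuron sum lie right of 0, although P2ry2 rests on 12 to 37 reads and was higher in brain tumor 1 (1.92 RPKM) than in brain tumor 3 (1.86). Panx2, Upp2 and Nt5c2 are among the other purine genes right of 0.

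The other host genes of the same list numbered 43 in the mouse table, of which 36 passed the filter. Of these, 4 rose and 3 fell in the brain tumors, or 19.4%, beside 22.4% of all tested mouse genes, and their median log2 difference was -0.37 against 0.08 for all. Of 5 nucleoside transporters, 1 rose and 2 fell, of 3 genes of nucleotide release 1 rose and 1 fell, and of 8 further P2 receptors 0 were called. Among the 8 further ectonucleotidases and the 10 breakdown and salvage genes, 1 of each rose. Panx2, a pannexin channel gene, had 41.1 to 52.4 RPKM in the brain tumors against 0 and 0.479 RPKM in lung (limma adjusted p = 0.00126). Its 0 in lung tumor 1 allows up to 5.48 RPKM. Panx2, Slc29a4 and Slc28a2 passed the filter of 1 RPKM in at least 2 libraries on the high values of 1 organ. The other organ alone would not have passed it, although Slc29a4 was at 1.27 RPKM in lung tumor 2. Their calls are therefore given as a description.

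Slc29a1, the equilibrative transporter that carries adenosine across membranes, fell, from 96.6 and 125 RPKM in lung to 41.3, 29.9 and 27.1 across the brain tumors (log2 fold change -1.74, SE 0.33, limma adjusted p = 0.0162). Slc28a2, a sodium-driven carrier of purine nucleosides, fell as well, from 5.94 and 3.78 RPKM to at most 0.254 (adjusted p = 0.0108), on 4 and 58 reads in lung. Slc29a4, a monoamine and adenosine transporter, rose to 4.11 to 11.7 RPKM from 0 and 1.27 (adjusted p = 0.0338), where the 0 of lung tumor 1 allows up to 7.94 RPKM. Entpd6, a nucleotidase of intracellular membranes, rose to 24.98 to 33.3 RPKM from 9.18 and 7.85 (adjusted p = 0.0240). Upp2, the second uridine phosphorylase, was at 11.1, 11.5 and 11.6 RPKM across the brain tumors, against 2.23 (1 read) and 1.66 in lung, and rose (adjusted p = 0.0143), whereas Upp1 was not called and had its higher values in the lung tumors. Slc17a9, which loads ATP into vesicles, fell from 16.8 and 11.8 RPKM to 1.91 to 4.96 (adjusted p = 0.0375). Apart from Panx2, which was called in each of 13 alternatives, all 6 lost their calls without brain tumor 2 and without brain tumor 3 (adjusted p 0.0567 to 0.156). Entpd6, Slc17a9, Slc29a4 and Upp2 also lost them without brain tumor 1 (0.0774 to 0.137), and Slc17a9 and Slc29a4 without lung tumor 1 (0.0700 and 0.0752).

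To set cancer and host side by side, each RPKM was multiplied by the share of the library's reads that came from its species, which puts both on the scale of the whole library. The tables were normalized separately and the gene lengths are not comparable in detail (484 bases were implied for Entpd1 and 4199 for Adora1), so these levels carry no test. On this scale NT5E was mostly human in every tumor: 141, 77.9 and 28.0 in the brain tumors against 2.27, 3.27 and 3.73 for mouse Nt5e, and 91.8 and 181 against 0.359 and 17.1 in the lung tumors. In reads the human gene also led in all 5, by 1570 to 93 in brain tumor 1 and by 1633 to 567 in lung tumor 2. Entpd1, the enzyme before it in the pathway, was measured here on the host side alone, at 29.1, 39.9 and 17.2 across the brain tumors, against 2.43 and 130 in lung tumors 1 and 2.

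ENTPD2 was mainly human in the brain tumors, at 15.3, 12.5 and 6.57 against 1.53, 2.09 and 2.58 for mouse Entpd2. In lung tumor 2 the host gene was the higher one, at 2.55 against 0.662, on 42 mouse and 9 human reads. UPP1 was mainly human in all 5 tumors, by 2.90 times in lung tumor 2 and by 3.49 to 10.7 times in the brain tumors. In lung tumor 1 it was 262 times the mouse gene, on 4 mouse reads. Adora1 was mainly mouse in the brain tumors, where the mouse gene was at 17.4, 26.5 and 62.3 and human ADORA1 at 0.954, 1.21 and 0.366. In lung tumor 1 the human gene was the higher one, at 1.65 against 0.0701 (22 human and 2 mouse reads). In lung tumor 2 the mouse gene was again higher, at 1.72 against 0.112 (65 mouse and 2 human reads).

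For ADORA2B the leading species changed between tumors. The human gene was 5.44 and 2.23 times the mouse gene in brain tumors 1 and 2, 0.321 times in brain tumor 3, and 36.8 and 1.34 times in lung tumors 1 and 2. P2RX4 had the human gene ahead in brain tumor 1 (12.2 against 10.1) and lung tumor 1 (20.6 against 5.45). The host gene led in brain tumor 2 (15.0 against 10.9), brain tumor 3 (11.8 against 2.90) and lung tumor 2 (63.4 against 5.94). The share of human reads was highest in lung tumor 1 and lowest in brain tumor 3. ADORA2B ratios had the order of that share. The human to mouse ratio of P2RX4 did not, being 0.0937 in lung tumor 2 and 0.245 in brain tumor 3. The read share enters each of these ratios by construction, since each RPKM was multiplied by its species' share. Before that step ADORA2B was above Adora2b in every tumor, at 4.87 against 4.30 RPKM in brain tumor 3. P2RX4 was below P2rx4 in every tumor on that same plain RPKM scale.

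**Figure D5:**
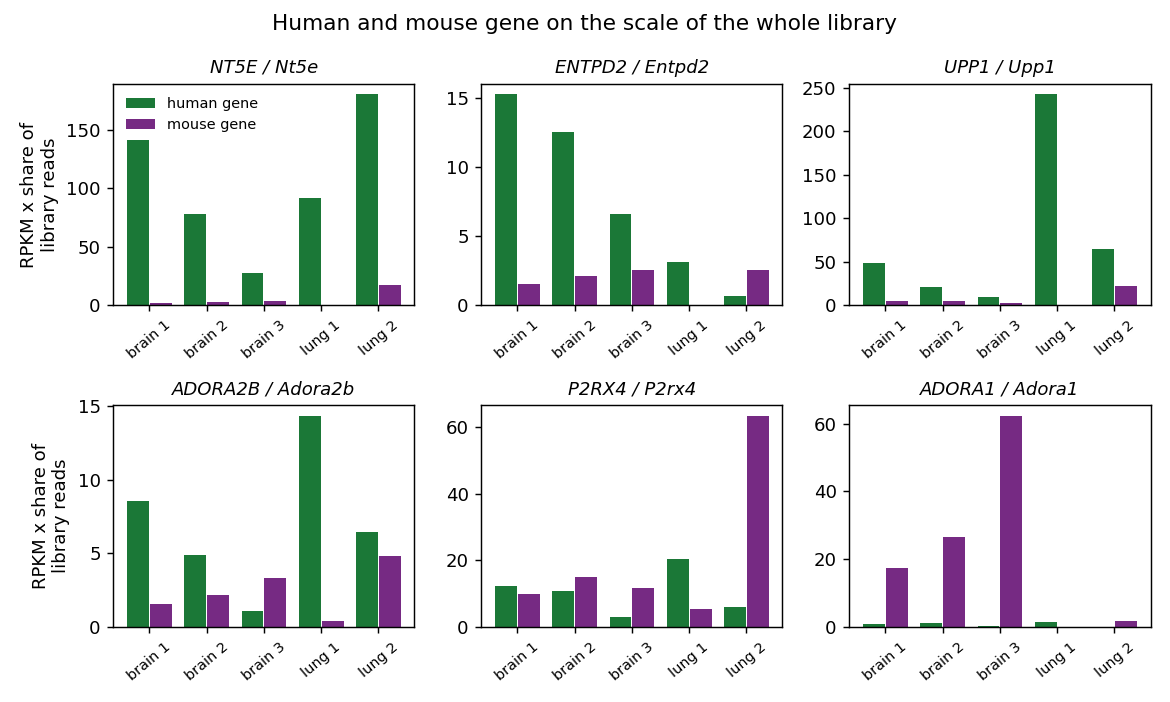
RPKM multiplied by the species' share of the library's reads, for the human (green) and mouse (purple) gene of the same symbol in each library. NT5E and UPP1 are mainly human in every library, ADORA1 is almost wholly mouse in the brain tumors, and P2RX4 is highest as the mouse gene of lung tumor 2, at 63.4.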

How the data were processed

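RNA sequencing of 5 tumors gave 1 human and 1 mouse table of RPKM, which the authors made and deposited; per the submitters' processing notes hg38 (GRCh38) was used for human and mm10 (GRCm38) for mouse. Not given in the sources used here are the aligner, the counter, the gene lengths and how reads were split by species. Library numbers in the descriptions tied every column to its sample, leaving 0 unmapped. Human positions are from the RefSeq table of GRCh38.p14, matched by symbol for all 7 human members.

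Whole reads were recovered from the ratios of a gene's RPKM between libraries once each library was rescaled by its own factor. Whole numbers came out, within 3.06e-10 reads, for all 25524 genes of the human and all 24628 of the mouse table, and for 1.4% and 0.2% of genes drawn at random under a false factor. A divisor common to all libraries cannot be seen, so the reads are lower bounds. Genes with at least 1 RPKM in at least 2 libraries were fitted with limma 3.58.1 (R 4.3.3) on log2(RPKM + 1), brain minus lung, with eBayes and an intensity trend, and were called at a Benjamini-Hochberg adjusted p under 0.05 within the species. Fold changes on this scale understate the change of low genes. The fit was checked on simulated data. Alternatives were a pseudocount of 0.1 or 0.5, the filter removed or raised to 5 RPKM, median-ratio scaling, leaving out each library, the replicate number as a block, voom on the recovered reads and, added after seeing the data, a correction for gene length.

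The members, the list of 47 other genes and the tests were chosen with earlier results of these data known. Every member is named. Of the other genes, called ones are named. Where fewer than 4 were called, those with the largest change are named too, up to 4. These needed a mean of at least 5 RPKM in the higher group. Further genes are named outside this rule for the comparison among the brain tumors, for fits without single libraries and under other observations. Those named as low within the brain tumors and those under other observations were chosen after their values were seen.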

Additional observations from a re-analysis of the deposited data

How the results depend on the processing

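Of the 9 host members 3 were called in all 5 libraries, 5 with voom on recovered reads (Nt5e and Upp1 added; 27.4% of all mouse genes were called there), 1 with the replicate block (adjusted p = 0.112 for P2ry2 and 0.0867 for P2rx4 by limma), and 1 to 4 when single libraries were left out. Adora1 was called in every one of these fits. Of the other host purine genes 7 were called, against 1 with the replicate block (Panx2) and 1 to 18 without single libraries, the 18 without lung tumor 2. Leaving out a library also leaves fewer degrees of freedom. Of the other human purine genes 0 were called, and 0 to 4 without single libraries. Over all mouse genes 3457 were called, 1484 with the replicate block and 1195 to 8275 without single libraries. Over all human genes 1 was called, 114 with the replicate block and 0 to 1905 without single libraries. Of the cancer members 2 had higher mean log2 values in the brain tumors (ENTPD2 and ADORA1), and 1 with a filter at 5 RPKM, which removes ADORA1.

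The sign of the brain minus lung difference changed when single libraries were left out for NT5E (-1.55 to 0.64), ADORA1 (-0.03 to 1.07) and P2RX4 (-0.39 to 0.15, and 0.01 with the replicate block); the cause was not tested. The replicate numbers are shared by the labels of both organs, but nothing says that they pair animals. Deviations of same-numbered libraries correlated at -0.082 and 0.059 over human and 0.035 and 0.050 over mouse genes, and under the block brain tumor 3, which has no partner, adds nothing to the difference. The median log2 difference of all mouse genes was 0.08 as deposited, 0.21 with median-ratio scaling and -0.16 with voom, and the directions of Adora1, P2rx4 and P2ry2 were the same under these. Depth limits the host values of lung tumor 1, where the 9 members had 0 to 39 reads.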

Other observations

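Several other host genes of nucleotide and nucleoside handling were set apart by 1 of the 2 lung tumors. Ada, which removes adenosine by deamination, was at 136 RPKM in lung tumor 1, on 18 reads, and at 7.93 in lung tumor 2, beside 1.22 to 6.40 in the brain tumors. Dpp4, a surface peptidase known to bind adenosine deaminase, was at 204 RPKM in lung tumor 2, 6.57 in lung tumor 1 on 1 read, and 2.83 to 7.87 in the brain tumors. Alpl, the tissue-nonspecific alkaline phosphatase, which can also make adenosine from AMP, was at 90.5 RPKM in lung tumor 2 and listed at 0 in lung tumor 1, where a count of 0 allows up to 21.0 RPKM. Enpp1, which splits ATP to AMP and pyrophosphate, was at 49.6 RPKM in lung tumor 1 and 8.70 in lung tumor 2. None of these 4 was called by limma in all 5 libraries, and they were chosen after their values were seen.

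In the cancer cells P2RY6, a receptor for UDP, was at 8.25 RPKM in lung tumor 2 (52 reads, 95% Poisson interval 6.17 to 10.8) and at 0.182 to 0.564 RPKM in the other 4 libraries, on 1 to 8 reads. It was chosen after its values were seen and did not pass the filter. The mouse gene P2ry6 was at 48.4 RPKM in lung tumor 2 and at 143 in lung tumor 1.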
